A study of Mus musculus with 9 samples.

Results

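P2ry12, P2ry13, Tmem119, Cx3cr1, Csf1r, Sall1, Siglech, Gpr34 and Olfml3 are genes that microglia express at rest and by which these cells are usually recognised. They were picked by symbol as markers of resting microglia that were found in the sorted fraction. All 9 were among the 16367 genes of the table of sorted retinal cells, and 8 were among the 17035 genes of the table of primary cultures. Siglech was the gene without a row in the culture table.

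Microglia are the resident macrophages of the retina. They survive on signals through the receptor CSF1R, whose ligands are CSF1 and IL-34, and neurons hold them in check in part through the chemokine CX3CL1 and its receptor CX3CR1. Their resting identity depends on TGF-beta and on factors such as SALL1 and PU.1. After injury, resting genes such as P2ry12 and Tmem119 are known to fall in many models, while genes of the disease-associated state such as Spp1 and Gpnmb rise.

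The libraries came from wild-type (WT) mice and were labelled as Müller glia, the main glial cell of the retina. In the ocular hypertension (OHT) group, 3 libraries, both eyes had received 1.2 µL of silicone oil into the anterior chamber, and the sham group, 3 libraries, had the corneal cut with no oil. Each of these 6 libraries came from 4 retinas pooled, depleted of dead cells, and sorted on magnetic beads with an antibody to GLAST (ACSA-1), which astrocytes also carry. The other 3 libraries were untreated primary cultures from C57BL/6J pups of postnatal day 8 to 10, grown on gelatin with serum and passaged. The age of the sham and OHT animals and the time since injection are not in the labels used here. Apart from the pooling, the labels do not say whether libraries of a group came from separate animals, so p-values measure only the spread between these samples.

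Depth was 37.8 to 44.5 M reads in sham, 47.1 to 53.6 M in OHT and 66.3 to 76.7 M in the cultures. Values are normalised read counts, or parts per M of a library's total reads, written ppm. Sham libraries held 14.1% to 19.6% mitochondrially encoded reads and OHT libraries 2.19% to 6.13%, without overlap. The Müller glia list (10 genes) summed to 0.334% to 0.827% of sham totals and 0.185% to 0.394% of OHT totals, against 0.657% to 1.54% and 0.750% to 1.00% for the 9 resting microglia genes. Genes of the labelled cell type were thus present beside those of microglia. Rod genes (8) summed to 0.233% to 2.31% of sham and 0.0757% to 0.293% of OHT totals. None of the 8 rod genes and none of the 10 Müller glia genes was at 0 in any sorted library, and the part of these cells in the results below was not tested.

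Promoter sequences are shown for the receptor pair P2ry12 and P2ry13 and for Siglech, because they differ in the PU box, the GAGGAA core bound by PU.1, the factor on which all macrophages depend. RefSeq promoters (GRCm38.p6, 250 bases before to 50 after each start) were matched for 6 of the 9 genes, with none for Tmem119, Csf1r and Gpr34. The PU box, read on both strands, stood in the promoters of 2 of these 6 genes, P2ry13 and Siglech, and in 28.3% of all 32851 promoters. The promoters are written 5′ to 3′ on the strand of the gene with the PU box in capitals. They lie at chr3:59262936-59263235 (minus strand) for P2ry12, chr3:59210833-59211132 (minus strand) for P2ry13 and chr7:55767934-55768233 (plus strand) for Siglech.
P2ry12: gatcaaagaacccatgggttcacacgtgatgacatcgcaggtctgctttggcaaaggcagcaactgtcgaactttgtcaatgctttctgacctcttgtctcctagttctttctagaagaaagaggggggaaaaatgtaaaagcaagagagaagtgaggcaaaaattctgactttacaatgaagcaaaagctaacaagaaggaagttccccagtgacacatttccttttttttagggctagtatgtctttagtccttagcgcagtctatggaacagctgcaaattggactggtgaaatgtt
P2ry13: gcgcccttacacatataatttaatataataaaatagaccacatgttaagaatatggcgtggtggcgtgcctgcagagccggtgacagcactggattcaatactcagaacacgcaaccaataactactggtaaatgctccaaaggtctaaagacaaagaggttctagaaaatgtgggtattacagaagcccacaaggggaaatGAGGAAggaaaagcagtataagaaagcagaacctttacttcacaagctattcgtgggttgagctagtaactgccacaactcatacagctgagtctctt
Siglech: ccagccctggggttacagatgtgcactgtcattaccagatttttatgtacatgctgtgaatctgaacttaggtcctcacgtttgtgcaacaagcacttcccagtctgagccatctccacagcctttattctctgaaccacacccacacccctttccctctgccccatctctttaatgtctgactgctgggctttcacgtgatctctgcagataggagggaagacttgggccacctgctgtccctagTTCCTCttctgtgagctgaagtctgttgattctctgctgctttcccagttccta
The P2ry13 promoter held the box on the strand of the gene and the Siglech promoter held it on the opposite strand, so that it reads TTCCTC. The SMAD box CAGAC, read on both strands, stood in promoters of 4 of the 6 genes (P2ry12, Siglech, Sall1 and Cx3cr1) and in 49.6% of all promoters, and none overlapped the PU box in Siglech. These matches describe the letters of the windows only.

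All 9 genes were well expressed in the sorted cells. Per kilobase of the longest coding transcript (GENCODE M21), P2ry12 was the highest at 633 ± 278 ppm per kb, followed by Tmem119 at 621 ± 320 and Csf1r at 496 ± 159 ppm per kb (SD, n = 6 libraries). Gpr34 followed at 387 ± 113, Cx3cr1 at 361 ± 101 and P2ry13 at 311 ± 95 ppm per kb. Siglech stood at 236 ± 95, Olfml3 at 142 ± 42 and Sall1, a transcription factor, at 18.4 ± 6.8 ppm per kb. P2ry12 ranked 80 of 14900 genes with a length and Sall1 ranked 2919. Several neighbours in this order were not separated: P2ry12 was above Tmem119 in 3 of 6 libraries, Gpr34 above Cx3cr1 in 3 of 6 and Tmem119 above Csf1r in 4 of 6. Csf1r was above Gpr34 and P2ry13 above Siglech in 5 of 6. Cx3cr1 was above P2ry13, Siglech above Olfml3 and Olfml3 above Sall1 in 6 of 6.

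Whether the resting microglia genes differed in ocular hypertension was asked in the 6 sorted libraries. None of the 9 genes passed the test, and every gene's values overlapped between the groups. limma with Benjamini-Hochberg adjustment called 0 of 9 genes, against 0 of 14403 genes in the whole table (0%). At an unadjusted p under 0.05, limma gave 0 of the 9 and 1680 of all genes. At an adjusted p under 0.05, edgeR called 0 and DESeq2 250 genes in all, again 0 of the 9. No gene of the 9 had every OHT library above every sham library, which 9.26% of all genes had, and none had every OHT library below, which 9.18% had. In bulk libraries a smaller share of microglia and less of an RNA in each microglial cell cannot be told apart.

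Among the purine and lipid receptors, P2ry12 encodes the ADP receptor that guides microglial processes to sites of damage. It was at 100870, 71458 and 29345 normalised counts in sham replicates 1 to 3 and at 94730, 51842 and 45137 in OHT. The sham libraries spanned the OHT values on both sides. The log2 difference, OHT minus sham, was 0.02 (SE 0.49, 95% interval -1.05 to 1.10, limma adjusted p = 0.987, Benjamini-Hochberg). P2ry13, a related ADP receptor, was at 45383, 34573 and 22615 in sham and at 35179, 32217 and 33356 in OHT. Its OHT libraries lay close together, between the sham extremes, and the log2 difference was 0.03 (SE 0.35, interval -0.73 to 0.79, limma adjusted p = 0.977). Gpr34, a receptor for lysophosphatidylserine, was at 46156, 31742 and 20037 in sham and at 60764, 31823 and 28259 in OHT. OHT replicate 1 was the highest and sham replicate 3 the lowest, with the others between, and the log2 difference was 0.30 (SE 0.42, interval -0.62 to 1.22, limma adjusted p = 0.767).

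Csf1r, the receptor on which microglial survival depends, was at 138260, 103124 and 82231 in sham and at 99479, 116657 and 66157 in OHT. Sham replicate 1 was the highest and OHT replicate 3 the lowest. The log2 difference was -0.20 (SE 0.39, interval -1.07 to 0.66, limma adjusted p = 0.838). Cx3cr1, the fractalkine receptor, was at 90843, 62310 and 54773 in sham and at 65883, 77004 and 67976 in OHT. All 3 OHT libraries lay between the highest and the middle sham library, and the log2 difference was 0.05 (SE 0.35, interval -0.72 to 0.83, limma adjusted p = 0.957).

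Tmem119 encodes a membrane protein that among retinal cells marks microglia. It was at 95724, 76411 and 35927 in sham and at 57260, 70085 and 25006 in OHT. It had the most negative estimate of the 9 genes, a log2 difference of -0.46 (SE 0.49, interval -1.53 to 0.61, limma adjusted p = 0.698), although OHT replicate 2 lay close to sham replicate 2. Siglech encodes a sialic acid receptor that plasmacytoid dendritic cells carry too. It was at 33630, 19302 and 10643 in sham and at 35628, 18000 and 26968 in OHT, and had the most positive estimate, 0.44 (SE 0.44, interval -0.53 to 1.41, limma adjusted p = 0.683). The lymphocyte and plasmacytoid dendritic cell list held 8 genes of 9 in the table, 7 of them at 0 in at least 1 sorted library, and summed to 0.000274% to 0.00124% of sham and 0.00102% to 0.00163% of OHT totals. Cox6a2, never at 0, was at 257, 84.9 and 247 in sham and at 840, 443 and 543 in OHT (limma adjusted p = 0.377). Every OHT library was above every sham library for Cox6a2, which 9.26% of all genes had.

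Sall1, the transcription factor that keeps microglia from turning into other macrophages, was at 6523, 3578 and 2810 in sham and at 6169, 3298 and 3410 in OHT. The pattern was 1 high library in each group and 2 low ones, with a log2 difference of 0.03 (SE 0.41, interval -0.87 to 0.93, limma adjusted p = 0.982). Olfml3, a secreted matrix glycoprotein, was at 43721, 28332 and 21050 in sham and at 38520, 41661 and 29955 in OHT. Its lowest OHT library was above 2 of the 3 sham libraries, and the log2 difference was 0.29 (SE 0.36, interval -0.50 to 1.09, limma adjusted p = 0.736). The intervals of all 9 genes include 0, and each reaches 0.79 or beyond on the log2 scale in at least one direction, so differences of that size lie within what these libraries allow.

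**Figure D1:**
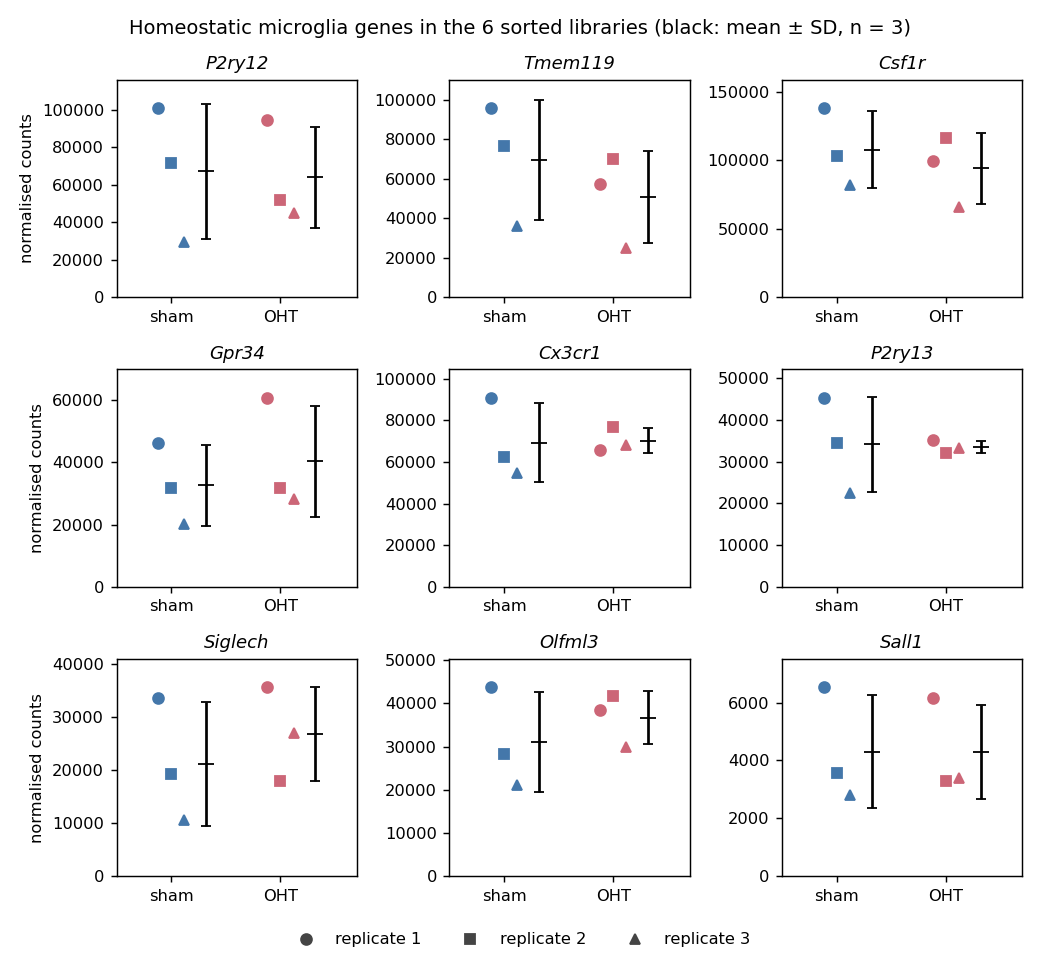
Normalised read counts (linear axis from 0) of the 9 genes, one panel per gene in the order of level per length, with sham libraries in blue, OHT libraries in red, symbols for replicates 1 to 3 and black bars for the mean ± SD (n = 3). In all 9 panels the groups overlap, and sham replicate 1 (circle) is the highest and sham replicate 3 (triangle) the lowest sham library.

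The direction of these estimates depended on the scaling, except that Tmem119 and Csf1r were negative with every scaling. With the deposited scaling, 7 of the 9 log2 differences were positive and the median was 0.03, against -0.12 over all tested genes. Over the 547 tested genes with a mean of at least 10000 counts it was 0.45. All members but Sall1 reached that level. With each library scaled to its total, 3 were positive (median -0.22, all genes -0.36). With the total taken without mitochondrially encoded genes, 1 was positive (median -0.41, all genes -0.55), and after quantile normalization 0 were (median -0.31, all genes 0.01). TMM factors gave 4 positive values, edgeR 3 and DESeq2 4. A correction for GC content and transcript length, chosen after seeing the data, gave 8, with a median of 0.42 against 0.17 over all genes. The members' sum was 1.54%, 1.10% and 0.657% of the library total in sham and 0.750%, 1.00% and 0.864% in OHT, the OHT libraries all within the sham range.

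Set against 15 leukocyte genes, the 9 genes had lower estimates in OHT but did not pass the test. For this, each library was scaled to the mean log2 value of the 15 genes, which include Ptprc, Laptm5 and Cd53 and some, such as Spi1, that not all leukocytes express. The 15 genes had higher estimates in OHT themselves, with a mean log2 difference of 0.47, 13 of 15 positive and 0 called by limma. Of the 15, 5 had every OHT library above every sham library, which 9.26% of all genes had, and the lower estimates of the 9 genes on this scale come from that shift. All 9 differences were then negative, as were 74.95% of all tested genes, with a median of -0.44 against -0.60 over all genes. Over the 547 tested genes with a mean of at least 10000 counts the median on this scale was -0.03. limma with Benjamini-Hochberg adjustment called 0 of 9 and 0 of 14403 genes (0%), with 1 of the 9 and 1919 of all genes at an unadjusted p under 0.05. The 1 gene was Tmem119, at -0.94 (SE 0.42, interval -1.82 to -0.05, limma adjusted p = 0.364). The next most negative was Csf1r, at -0.68 (SE 0.37, interval -1.46 to 0.10, limma adjusted p = 0.415). P2ry12 was at -0.45, P2ry13 at -0.44, Sall1 at -0.45 and Cx3cr1 at -0.42, with Gpr34 and Olfml3 both at -0.18 and Siglech at -0.03. Csf1r was the only member with every OHT library below every sham library on this scale, 1 of 9 genes where 14.5% of all genes had this, and 0 of 9 had every OHT library above, against 1.83% of all genes.

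The sum of the 9 genes was 1.22 ± 0.36 times the sum of the 15 leukocyte genes in sham and 0.724 ± 0.130 times in OHT (SD, n = 3 each). By library the ratio was 1.31, 1.53 and 0.830 in sham and 0.656, 0.874 and 0.641 in OHT, so that OHT replicate 2 was above sham replicate 3. One of the leukocyte genes, Spi1, which encodes PU.1, was at 757 normalised counts in OHT replicate 3 and between 9918 and 26781 in the other sorted libraries. Without Spi1 in the reference, chosen after seeing the data, the members' median was -0.54 and 0 genes were called. With 6 other microglia genes as the reference the median was -0.72, again with 0 calls.

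**Figure D2:**
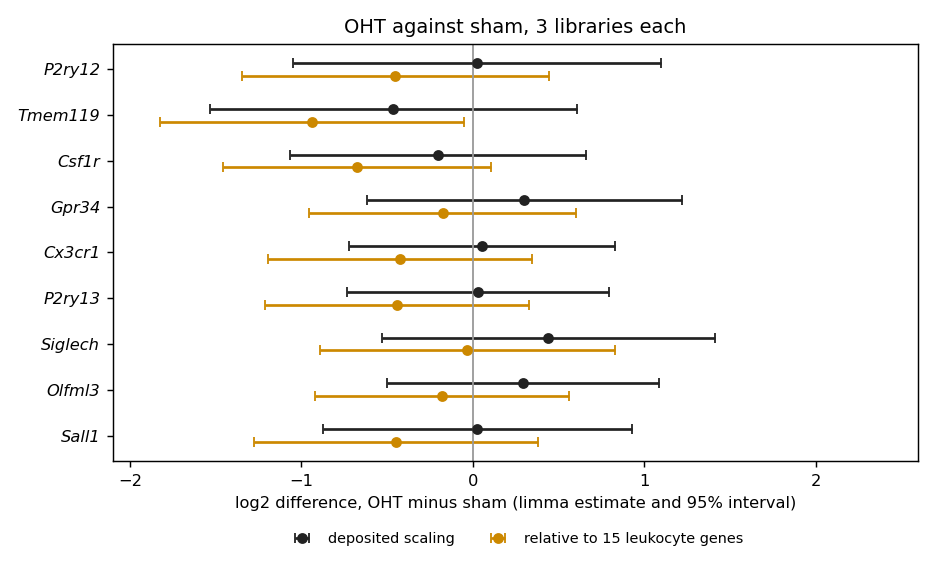
log2 difference, OHT minus sham, of each gene with its 95% interval from limma (3 libraries a group), black with the deposited scaling and orange relative to the 15 leukocyte genes. The black estimates run from -0.46 to 0.44, the orange ones from -0.94 to -0.03, and of all intervals drawn only the orange one of Tmem119 does not include 0.

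The sham libraries differed from each other in the same order for every gene. Sham replicate 1 was the highest and sham replicate 3 the lowest of the 3 sham libraries in 9 of 9 genes, an order that 16.3% of all tested genes had. Relative to the leukocyte genes, 2 of the 9 had this order, against 5.28% of all genes. The median SD of a member's log2 value was 0.60 in sham and 0.50 in OHT, while over all tested genes it was 0.44 and 0.90. Without sham replicate 1 the members' median log2 difference was 0.37 with 7 positive values, and without sham replicate 3 it was -0.23 with 2 positive values. Neither of these fits called a member. Leaving out sham replicate 1 or 3 moved the count of genes called by limma over the whole table from 0 to 12 or 7.

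Genes of the disease-associated microglial state ran the other way in sham replicate 3. Of 19 such genes, 15 were highest in sham replicate 3 among the sham libraries (31.5% of all tested genes were), while 9 of 9 resting genes were lowest there (28.9% of all tested genes were). The median deviation of the 19 genes from their own means was -1.08, -1.43 and 0.25 on the log2 scale in sham replicates 1 to 3 and 1.06, 0.85 and 0.83 in OHT. That of the 9 resting genes was 0.49, -0.11 and -0.60 in sham and 0.23, -0.04 and -0.26 in OHT. Spp1, which encodes osteopontin, was at 874, 1556 and 38610 in sham and at 200853, 118025 and 125904 in OHT. Its log2 difference of 5.26 (SE 1.06) did not pass limma's test (Benjamini-Hochberg adjusted p = 0.332), but passed without sham replicate 3 (6.95, limma adjusted p = 0.00119) and in DESeq2 (3.44, adjusted p = 0.0144). Apoe, a lipid carrier of microglia and of Müller glia, was at 440100, 583837 and 2790800 in sham and at 6506940, 4266820 and 596831 in OHT, with overlapping groups.

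All 19 disease-associated genes had positive differences with both scalings, with medians of 1.51 and 1.04, and limma called 0 of them. Of the 19, 13 had every OHT library above every sham library, where 9.26% of all genes did, and 6 of 19 relative to the leukocyte genes, where 1.83% did. In the same libraries, 0 of the 9 resting genes were separated in this way. Both lists were chosen with earlier results of these data known. These counts, and those by sham replicate, are therefore a description only.

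**Figure D3:**
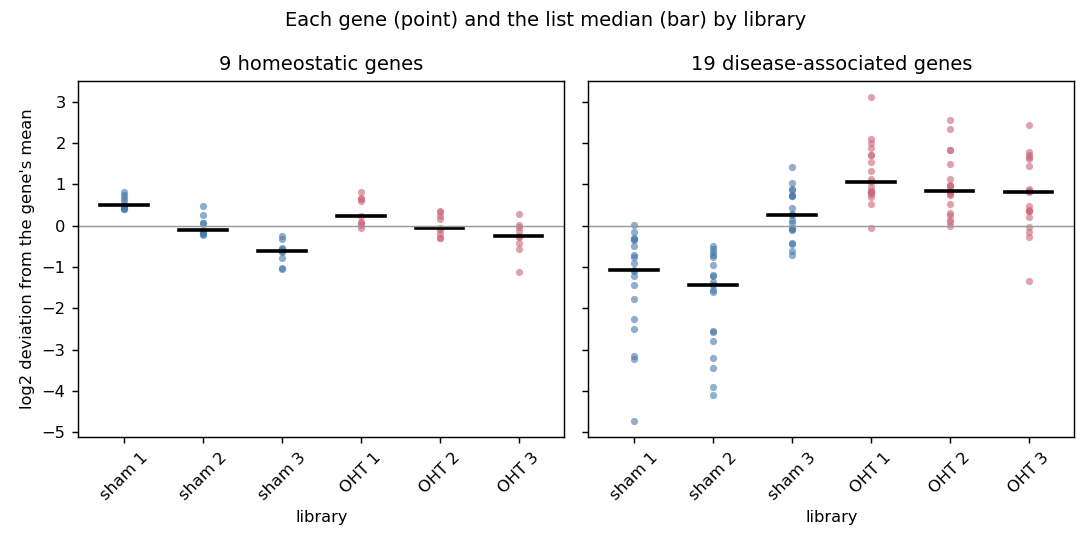
log2 deviation of each gene (point) from its own mean over the 6 sorted libraries, with the list median as a black bar, for the 9 resting genes and for 19 disease-associated genes. The resting genes are lowest in sham replicate 3 (median -0.60), where the disease-associated genes have a median of 0.25 against -1.08 and -1.43 in the other sham libraries.

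The 9 genes did not vary as 1 block. The ratio of P2ry13 to Cx3cr1 was the steadiest of all pairs, with an SD of 0.18 on the log2 scale and a 1.34-fold range over the 6 sorted libraries. Sall1 to Gpr34 came next, with an SD of 0.21. Tmem119 to Siglech was the least steady, with an SD of 0.84 and a ratio from 0.927 in OHT replicate 3 to 3.96 in sham replicate 2. P2ry12 to P2ry13, which lie side by side in the genome, ranged from 1.30 in sham replicate 3 to 2.69 in OHT replicate 1.

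Outside the list, the genes with the most similar profiles were named by the root mean square distance of centred log2 values over the 6 sorted libraries, among 11467 genes with a mean of at least 100. Nearest to P2ry13 were Havcr2, which encodes the checkpoint receptor TIM-3, and Dip2b, at 0.06 and 0.07, where the median distance of all genes was 0.73. For Cx3cr1 they were Bin2 (0.07) and Pla2g4a (0.08), which encodes a cytosolic phospholipase A2. For Gpr34 they were Hnmt (0.06) and Hpgd (0.07), enzymes that break down histamine and prostaglandins. For Csf1r they were Ivns1abp and Spart, for Olfml3 Smim15 and Fam91a1, for Sall1 Ldlrad4 and Mylip, and for Siglech Nav3 and Ccl9, at 0.09 to 0.13. For P2ry12 they were Tbc1d16 (0.12) and Cables1 (0.14), and for Tmem119 Zfp69 (0.14) and Zfp467 (0.18), the most distant of these. These distances rest on 6 libraries and are a description.

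Further genes of resting microglia gave no call either. Of 25 listed, 24 were in the table, limma called 0, and 10 had positive and 14 negative differences, with a median of -0.04. In sham, 22 of the 24 were highest in replicate 1 and 20 of 24 lowest in replicate 3. Sparc, a matrix protein, was at 131854, 108754 and 61112 in sham and 133524, 77838 and 94027 in OHT. Selplg, a selectin ligand, was at 143593, 93852 and 39206 in sham and 112544, 84018 and 37226 in OHT. Both genes had overlapping groups. Relative to the leukocyte genes, 4 of the 24 had every OHT library below every sham library, where 14.5% of all genes did.

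The list of ligands and TGF-beta genes gave no call, with 0 of 14 passing and 7 positive and 7 negative differences. Of the 14, 1 had every OHT library below every sham library (Cx3cl1) and 2 had every OHT library above (Tgfbr2 and Smad4), against 9.18% and 9.26% of all genes. Csf1, a ligand of Csf1r, was at 2654, 886 and 3407 in sham and at 4778, 3452 and 1541 in OHT. Il34, the other ligand, was at 3.10, 113 and 107 in sham and at 9.67, 41.2 and 1.60 in OHT. Cx3cl1, the ligand of Cx3cr1 and a product of neurons, was at 63.0, 313 and 152 in sham and at 5.53, 4.94 and 0 in OHT. Its log2 difference of -5.43 (SE 1.37) did not pass limma's test (Benjamini-Hochberg adjusted p = 0.332) and passed in DESeq2 (-5.69, adjusted p = 0.00249). The size depends on the pseudocount, since a pseudocount of 10 gave -3.56 and one of 0.5 gave -5.83. The rod genes were lower in the same libraries, with a list median of -2.27 and 0 of 8 called by limma, and their part in the Cx3cl1 values was not tested. In the primary cultures Cx3cl1 was at 12.8 ± 2.3 ppm, against 4.38 ± 3.24 ppm in sham (SD, n = 3 each), so its RNA was not limited to the sorted libraries.

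Tgfb1 itself was low, at 251, 223 and 292 in sham and 126, 337 and 86.5 in OHT. The receptor gene Tgfbr1 was at 21168, 14663 and 11896 in sham and 27302, 16331 and 17174 in OHT. Nrros, which holds latent TGF-beta on microglia, was at 10230, 8739 and 8406 in sham and 10382, 9099 and 9941 in OHT, and Tgfbr2 at 6768, 4468 and 6021 against 9347, 7174 and 6826. Smad4, a TGF-beta signal transducer named after its values were seen, was at 772, 739 and 617 in sham and 1094, 927 and 1006 in OHT. Of 9 transcription factors of microglia, 7 had positive and 2 negative differences, with a median of 0.51 and 0 calls by limma. Mef2c was at 23412, 15040 and 17285 in sham and 33818, 20183 and 30501 in OHT. Irf8 was at 26044, 12920 and 19581 in sham and 25152, 23696 and 10774 in OHT, and Mef2a at 12172, 8448 and 7015 against 11112, 8651 and 4320. The highest sham library was replicate 1 for all 9 factors.

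Genes of border macrophages, which also carry Csf1r and Cx3cr1, were present at lower levels. The 9 genes of that list summed to 0.0650% to 0.115% of sham and 0.123% to 0.217% of OHT totals, with none at 0 in any sorted library. The sums did not overlap, but this rested on Ms4a7: without it they were 0.0524% to 0.0627% in sham and 0.0358% to 0.116% in OHT, which overlap. The test with limma called 0 of them, with 7 positive and 2 negative differences. Ms4a7 was at 4891, 4595 and 22079 in sham and at 96975, 38427 and 35070 in OHT, F13a1 at 5340, 6878 and 9300 against 9709, 3862 and 11340, and Mrc1 at 4435, 4793 and 7563 against 11358, 3848 and 11812. Monocyte and neutrophil genes (8 of 9 in the table, 3 of them at 0 in at least 1 library) summed to 0.0188% to 0.0277% of sham and 0.0174% to 0.0245% of OHT totals. Csf3r made up 75.3% to 97.1% of these sums, and without it they were 0.000678% to 0.00519% in sham and 0.00221% to 0.00458% in OHT. None of the 8 passed limma's test. The part of these cells in the values of Csf1r and Cx3cr1 was not tested.

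In the primary cultures these genes were far lower. The 2 tables were normalised apart, so levels are compared in ppm and without a test. Of the 8 genes in both tables, 8 had every culture below every sorted library, which 16.5% of the 15438 shared genes had. For 5 of the 8 every culture was over 100-fold below every sorted library, which 1.66% of shared genes were, namely P2ry12, P2ry13, Csf1r, Gpr34 and Cx3cr1. The genes were picked as found in the sorted fraction, so these counts are in part set by that choice. The shares of all shared genes carry no such choice, and the counts are a description only.

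P2ry12 had 10, 3 and 2 reads in the 3 cultures, and P2ry13 had 7, 3 and 0. A count of 0 at that depth allows up to 3 reads, or 0.0391 ppm. Pooled over libraries, P2ry12 was 21001-fold (95% exact Poisson interval 12733 to 37523) and P2ry13 16907-fold (9193 to 35257) lower in the cultures than in the sorted cells. These intervals and limits hold for counting error in the culture reads alone, because the cDNA was amplified and reads were not tagged by molecule. The spread between libraries is not part of them. Gpr34 had 28, 46 and 18 reads, a pooled fold of 1896 (1546 to 2352). Cx3cr1 had 27, 73 and 100 reads, a fold of 1756 (1529 to 2027), and Csf1r 176, 231 and 425 reads, a fold of 604 (564 to 647).

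The other 3 genes differed less between the cultures and the sorted libraries. Olfml3 was at 4.64, 6.27 and 9.16 ppm in the cultures against 494.7 to 1119 ppm in the sorted libraries, a pooled fold of 114 (108 to 120). Sall1 was at 1.82, 0.912 and 1.89 ppm against 66.0 to 167 ppm, a fold of 61.8 (55.5 to 69.0). Tmem119 was at 44.9, 57.3 and 76.7 ppm against 662 to 2450 ppm, a fold of 22.5 (22.1 to 22.9). From its lowest sorted library to its highest culture the fold was 8.63, which lies outside that counting interval. Tmem119 alone made up most of the members' sum in the cultures, which was 0.00551% to 0.00949% of the total. The order of the genes therefore differed: P2ry12 was the highest per kilobase in the sorted cells (633 ppm per kb) and at 0.0308 ± 0.0292 ppm per kb in the cultures, where Tmem119 was at 26.6 ± 7.2 ppm per kb (SD, n = 3).

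The 15 leukocyte genes summed to 0.00192% to 0.00336% of the culture totals and to 0.717% to 1.35% of the sorted totals. As a share of that sum, Tmem119 averaged 250% in the cultures and 19.5% in sham. Olfml3 averaged 27.6% and 8.60%, and Sall1 6.47% and 1.17%. P2ry12, P2ry13, Csf1r, Gpr34 and Cx3cr1 had lower shares in the cultures than in sham. Which cells gave the culture reads of these genes was not tested. Fibroblast and mural genes, all 10 of them in the culture table, summed to 1.67% to 1.96% of culture totals, against 0.0117% to 0.0385% of sham totals. Acta2 and Col1a1 averaged 10370 and 5717 ppm in the cultures and made up most of that sum. Rgs5 went the other way, at 3.04 ppm in the cultures against 172 ppm in sham. Pdgfra also had a lower mean in the cultures (21.2 ppm) than in sham (79.1 ppm). However, Pdgfra was at 0 in sham replicate 1 and averaged 3.63 ppm in OHT. The rest of the list had higher means in the cultures. Tmem119 is also known from cells of the osteoblast lineage, and the part of such mesenchymal cells in its culture level was not tested. Csf1 was at 466 ± 117 ppm in the cultures and 56.8 ± 30.3 ppm in sham (SD, n = 3 each), so that this ligand was higher in the cultures while its receptor Csf1r was at 3.75 ± 1.56 ppm.

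**Figure D4:**
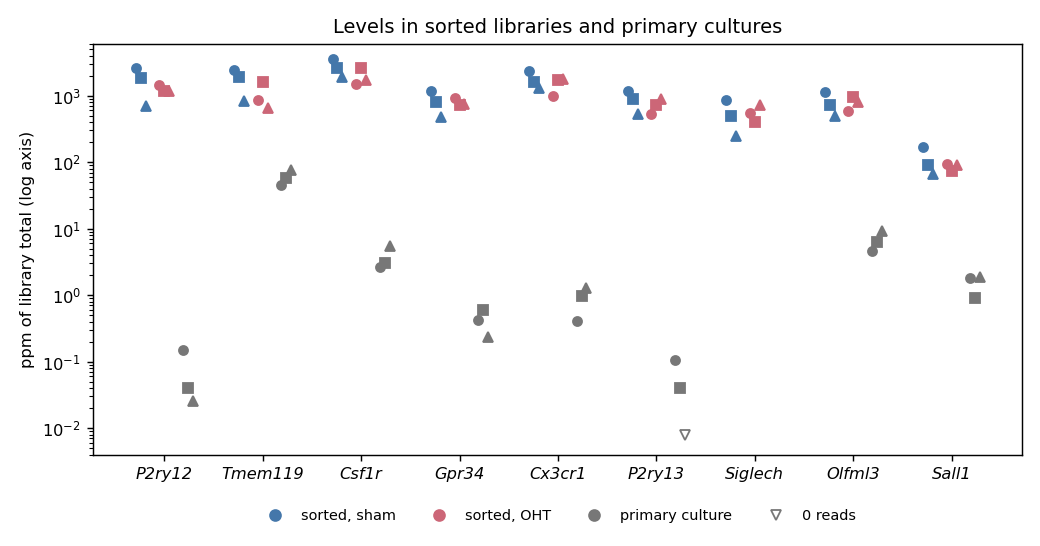
Level of each gene in ppm of the library's total (log axis) in sham (blue), OHT (red) and primary culture (grey) libraries, one symbol per library and an open triangle at the foot for 0 reads. The grey points lie below all blue and red points for the 8 genes with culture values, closest for Tmem119 (44.9 to 76.7 ppm against 662 ppm or more), and Siglech has no grey point.

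Some of the 9 genes share ground with others. In GENCODE M21, P2ry12 and P2ry13 lie within Med12l, a Mediator subunit gene, on the opposite strand, and Gpr34 lies within Cask, a scaffold kinase gene, on the opposite strand. The labels do not state whether counting used the strand, and without it reads of such pairs cannot be told apart. The host genes were low beside them: Med12l averaged 805 normalised counts over the sorted libraries, 1.23% of P2ry12 and 2.38% of P2ry13, and Cask 1709, which was 4.69% of Gpr34. Among other overlaps, Cx3cr1 shares ground on its own strand with Csrnp1 and Gorasp1, where the strand would not separate reads. Csrnp1 averaged 3173 counts, 4.55% of Cx3cr1, and Gorasp1 770, which was 1.10%. Csf1r overlaps Hmgxb3 on the opposite strand, at 699 counts or 0.692% of Csf1r. In the cultures the host genes were above the genes they hold. Cask was at 27.2 ppm there and Gpr34 at 0.422 ppm, while Med12l was at 0.405 ppm and P2ry12 at 0.0722 ppm.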

How the data were processed

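The members and the gene lists were chosen with earlier results of these data known. The authors deposited a normalised signal for each gene, in one table for the 6 sorted libraries and another for the 3 cultures. Within each library the deposited values are whole multiples of a single step, for 100% of values within 0.05 reads, so they were read back as gene counts over 1 size factor. The step of culture replicate 3 is too near 1 to check this there. Per the submitters' processing notes, mm39, bcl2fastq 2.20, Trim Galore 0.6.6, FastQC 0.11.9 and STAR 2.7.1a were used. For the counter, the annotation and the normalization tool, names were not given in the sources used here. Chi-square values per gene between replicates of 51.2 to 818 showed no pair within sampling noise.

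limma 3.58.1 (R 4.3.3, variance trend) was fitted on log2(value + 1) to 14403 genes (mean of 10 or more in the sorted libraries), adjusted by Benjamini-Hochberg and read at 0.05. Fold changes on this scale understate those of low genes. A second fit first centred each library on 15 leukocyte genes. edgeR 4.0.16 and DESeq2 1.42.0 were run on the whole reads, and the fits were tested on simulated data. Other alternatives were pseudocounts, filters, TMM, quantile and total scaling, array weights, eBayes without trend, a block on replicate number, a reference of 6 microglia genes, each library left out, and, chosen after seeing the data, a GC and length correction and a reference without Spi1. Lengths came from GENCODE M21 (GRCm38), which is not the authors' build, so coordinates are given for promoters only, in that build. Named were the members, 8 further genes (Spp1, Apoe, Csf1, Il34, Cx3cl1, Tgfb1, Med12l, Cask), listed genes past the threshold or else the 3 highest of a list, and the 2 nearest profiles of each member. Spi1, Smad4, Col1a1, Csrnp1, Gorasp1 and Hmgxb3 were named after their values were seen. One named gene is not reported here. Figures used Python 3.11.15, numpy 2.4.6, pandas 2.3.3 and matplotlib 3.10.9.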

Additional observations from a re-analysis of the deposited data

How the results depend on the processing

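No setting called a member: 0 of 9 passed under every alternative of both fits, with a smallest adjusted p of 0.400 (limma, deposited scaling) and 0.191 (limma, relative to the leukocyte genes). Over the whole table, limma's 0 calls became 0 to 12 with 1 library left out and 250 in DESeq2 (54 higher, 196 lower). Relative to the leukocyte genes they became 0 to 154 (154 without sham replicate 1, 50 without sham replicate 3). With the replicate number as a block they became 2 and, relative to the leukocyte genes, 573 (42 higher, 531 lower), with 0 members. Same-numbered deviations correlated at 0.08, -0.02 and -0.05 across genes, which shows no pairing by number. Deviations from means of 3 libraries cannot exclude such pairing.

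Signs of log2 differences changed with the scaling, that of Siglech included. Those of Tmem119 and Csf1r stayed negative with every scaling and turned positive with the GC and length correction. TMM gave P2ry12 -0.015, P2ry13 -0.0069 and Sall1 -0.010. Quantile normalization gave P2ry12 -0.32, P2ry13 -0.43, Cx3cr1 -0.31, Sall1 -0.26, Siglech -0.018, Gpr34 -0.15 and Olfml3 -0.13. Scaling to the total gave P2ry12 -0.23, P2ry13 -0.22, Cx3cr1 -0.20 and Sall1 -0.22. The total without mitochondrially encoded genes gave P2ry12 -0.42, P2ry13 -0.41, Cx3cr1 -0.39, Sall1 -0.41, Gpr34 -0.14 and Olfml3 -0.15. edgeR gave P2ry12 -0.14, P2ry13 -0.088, Cx3cr1 -0.040 and Sall1 -0.076. DESeq2 gave P2ry12 -0.073, P2ry13 -0.025 and Sall1 -0.0035. The GC and length correction gave P2ry12 -0.075, Tmem119 0.14, Csf1r 0.42, Tgfb1 0.19 and Selplg 0.21. The causes were not tested.

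With each library left out in turn, P2ry12 ranged from -0.49 to 0.40, P2ry13 from -0.24 to 0.26, Cx3cr1 from -0.10 to 0.26, Sall1 from -0.27 to 0.37, Gpr34 from -0.041 to 0.59, Csf1r from -0.38 to 0.031, Selplg from -0.72 to 0.27 and Csf1 from -0.032 to 1.02. Tmem119 stayed negative, from -0.88 without sham replicate 3 to -0.016 without OHT replicate 3, and Siglech positive, from 0.022 to 0.85. Relative to the leukocyte genes, Tmem119 ranged from -1.32 to -0.65, Siglech from -0.42 to 0.25 and Gpr34 from -0.45 to 0.0039. The log2 ratio of sorted cells to cultures stayed within 13.93 to 15.46 for P2ry12 and 13.40 to 15.28 for P2ry13, whose culture levels rest on 15 and 10 reads.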
